A study of Zea mays with 18 samples.

Results

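Maize (Zea mays) stems at tasseling, when the tassel emerges, were compared with stems at jointing, when the stem starts to elongate. The comparison used 12 of the 18 libraries of the series, 6 from tasseling and 6 from jointing, chosen by their stage labels. At each stage 3 hybrids were sampled, with 2 libraries each. All 3 hybrids share the parent Dan 598 and differ in height class: the low hybrid is Dan 598 x FAPW, the middle hybrid Dan 598 x CML444 and the high hybrid Dan 598 x ES40. Since only 1 hybrid stands for a height class, height and genotype cannot be told apart. The labels give the tissue as stem, with no internode position or plant age, and name no treatment. Whether the 2 libraries of a group are separate plants is not labelled, so the spread between them may be technical. The p-values of the stage change over the hybrids rest on that spread and on differences of the change between hybrids.

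A maize stem lengthens mainly at the base of each internode, where an intercalary meristem makes new cells that then expand and lay down walls. Cells that have stopped expanding can thicken their walls and deposit lignin, and the vascular bundles carry water, sugars and nutrients through the stem. The stem also holds stores of soluble sugar and defence compounds, among them the benzoxazinoids of grasses.

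Levels are FPKM, the authors' fragment counts scaled by transcript length and library size. Of the 34474 genes in the deposited table, 25854 had at least 1 FPKM in at least 2 of the 12 libraries and were tested. The other 8620 were not tested. Changes are tasseling minus jointing on the log2(FPKM + 1) scale, with hybrid kept as a factor, and are given with ± SE. This scale understates the change of low genes. A gene is said to rise or fall where limma's adjusted p was under 0.05. Read counts cannot be had from FPKM, which leaves absolute depth unknown. The relative depth, estimated from the steps between low values, ran from 0.632 to 1 in the tasseling libraries and from 0.445 to 0.899 in the jointing libraries. Between 20888 and 22708 genes reached 1 FPKM in a library. Replicates of a group correlated across genes on the log2(FPKM + 1) scale, least for high jointing at 0.896 and most for low tasseling at 0.938. In these bulk samples, fewer cells of a type and less RNA per cell cannot be told apart.

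Stage was the widest split among the libraries. Along the first principal component, with 35.3% of the variance, all 6 tasseling libraries lay apart from all 6 jointing libraries. Replicate 2 of high tasseling, at -31.1 on this component, and replicate 2 of high jointing, at 22.0, lay nearest to the other stage. The second component held 19.7%, with both low tasseling libraries and low jointing replicate 1 at one end and high tasseling replicate 2 at the other.

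**Figure D1:**
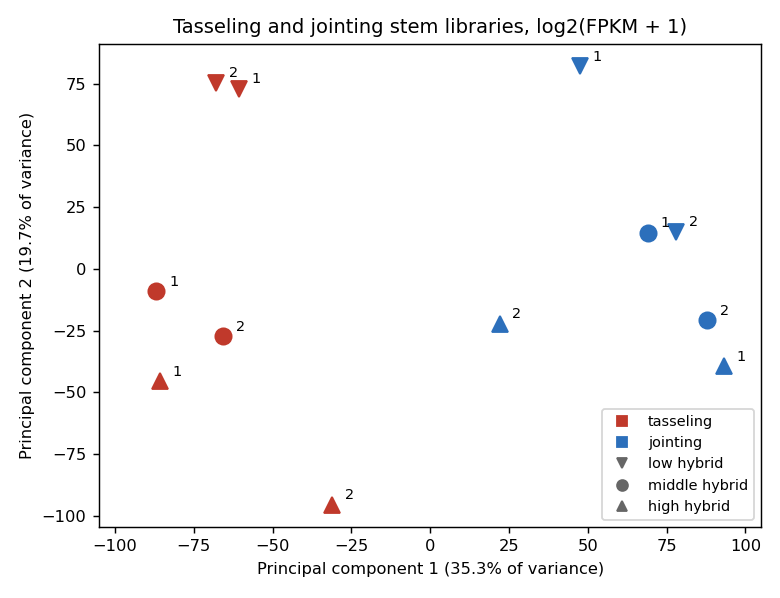
Principal components of log2(FPKM + 1) over the 25854 tested genes, 1 point per library, with the share of variance on each axis. Colour gives the stage, shape the hybrid and the digit the replicate. Tasseling libraries lie left of 0 and jointing libraries right of 0, with replicate 2 of the high hybrid nearest to 0 at both stages.

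In all, 7623 genes changed between the stages, which is 29.5% of those tested. Of these, 4832 rose at tasseling (18.7% of those tested) and 2791 fell (10.8%). Rises by over 1 log2 unit numbered 2407 and falls of that size 1441, and past 2 log2 units the counts were 455 and 333. The higher calls were 63.4% of all calls as deposited, but 52.8% after median-of-ratios scaling (4309 higher, 3849 lower) and 52.6% after quantile normalization (4318 higher, 3891 lower). So the excess of rises depended on the scaling. The 6 tasseling libraries all lay above the 6 jointing libraries for 1812 genes (7.01%) and all below for 957 (3.7%). With relative depth added as a covariate, the number of calls dropped to 4435 (2613 higher, 1822 lower). Of these, 3852 were also called without it, all with the same sign.

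Among named genes whose stages do not overlap, the largest rise was that of a MADS-box gene, Zm00001d018667, matched to a putative MADS-box transcription factor family protein. MADS-box factors are best known for their roles in flowering and floral organs. It had 61.8 to 130.2 FPKM in the tasseling libraries, with a median of 74.3, against 0 to 3.65 FPKM in the jointing libraries, with a median of 0.245. The stages were far apart in every hybrid. The change was 5.57 ± 0.37 log2 units (adjusted p = 2.04e-05), and it lay between 5.21 in the middle hybrid and 5.88 in the high hybrid.

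Wall proteins made up much of the rest of the largest rises. Proline-rich proteins and arabinogalactan proteins are glycoproteins of the wall and the cell surface. A gene for a proline-rich protein, Zm00001d028405, had 9.8 to 219 FPKM at tasseling (median 84.0) and 0 to 3.88 FPKM at jointing, where 4 of the 6 libraries listed it at 0. A proline-rich relative, Zm00001d047934, had 15.9 to 202 FPKM at tasseling (median 69.3) and 0 to 5.07 FPKM at jointing (median 1.43). The stages did not overlap for either gene, but the tasseling libraries spread over a wide range. Their changes were 5.28 ± 0.72 (adjusted p = 0.000461) and 4.86 ± 0.58 log2 units (adjusted p = 0.000254). AGP20, Zm00001d010434, had 22.5 to 103 FPKM at tasseling (median 83.0) and 0 to 3.38 FPKM at jointing (median 1.58), a change of 4.91 ± 0.48 log2 units (adjusted p = 0.000115).

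The 2 other large rises were of an enzyme and a lipid-binding protein. Dihydroflavonol-4-reductase acts in the branch that leads from flavonoids to anthocyanins. Its gene Zm00001d020958 had 17.3 to 90.2 FPKM at tasseling (median 54.9) and 0 to 6.0 FPKM at jointing (median 1.05), and rose by 4.44 ± 0.47 log2 units (adjusted p = 0.000147). Zm00001d014758, named lipid transfer-like protein VAS, had 50.5 to 604 FPKM at tasseling (median 181) and 4.78 to 17.7 FPKM at jointing (median 8.17). It rose by 4.14 ± 0.53 log2 units (adjusted p = 0.000353), with 6.15 in the middle hybrid, 3.28 in the low and 2.98 in the high.

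The largest fall was of benzoxazinless1, Zm00001d048709, which encodes the first enzyme of the benzoxazinoid pathway. It had 2.16 to 30.6 FPKM at tasseling (median 5.33) and 331 to 1113 FPKM at jointing (median 682). Every jointing library was over every tasseling library by a wide margin. The change was -6.53 ± 0.37 log2 units (adjusted p = 6.02e-06).

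Chaperone genes and a laccase followed. Class I heat shock protein 3, Zm00001d028561, had 0 to 2.67 FPKM at tasseling (median 0.51) and 19.2 to 357 FPKM at jointing (median 86.3), a change of -5.65 ± 0.58 (adjusted p = 0.000134). BAG family molecular chaperone regulator 6, Zm00001d016070, had 5.97 to 61.2 FPKM at tasseling (median 18.2) and 326 to 2213 FPKM at jointing (median 776), a change of -5.40 ± 0.55 (adjusted p = 0.000129). BAG proteins are partners of the Hsp70 chaperones. A putative laccase, Zm00001d042901, had 7.87 to 102 FPKM at tasseling (median 12.4) and 289 to 1515 FPKM at jointing (median 595). Laccases oxidise lignin monomers in the wall. This gene changed by -4.82 ± 0.65 log2 units (adjusted p = 0.000455), and middle tasseling and high tasseling each held 1 library far over the other 4.

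A pair of class I small heat shock genes, matched to the same class I heat shock protein, completed the 6 largest falls among named genes whose stages do not overlap. Zm00001d039935 had 2.26 to 30.4 FPKM at tasseling (median 12.3) and 162 to 603 FPKM at jointing (median 312). Zm00001d039936 had 1.89 to 53.2 FPKM at tasseling (median 15.6) and 137 to 970.2 FPKM at jointing (median 296). The changes were -4.80 ± 0.51 (adjusted p = 0.000151) and -4.62 ± 0.68 (adjusted p = 0.000705). Near-identical copies can share reads, so the split between these genes is uncertain.

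**Figure D2:**
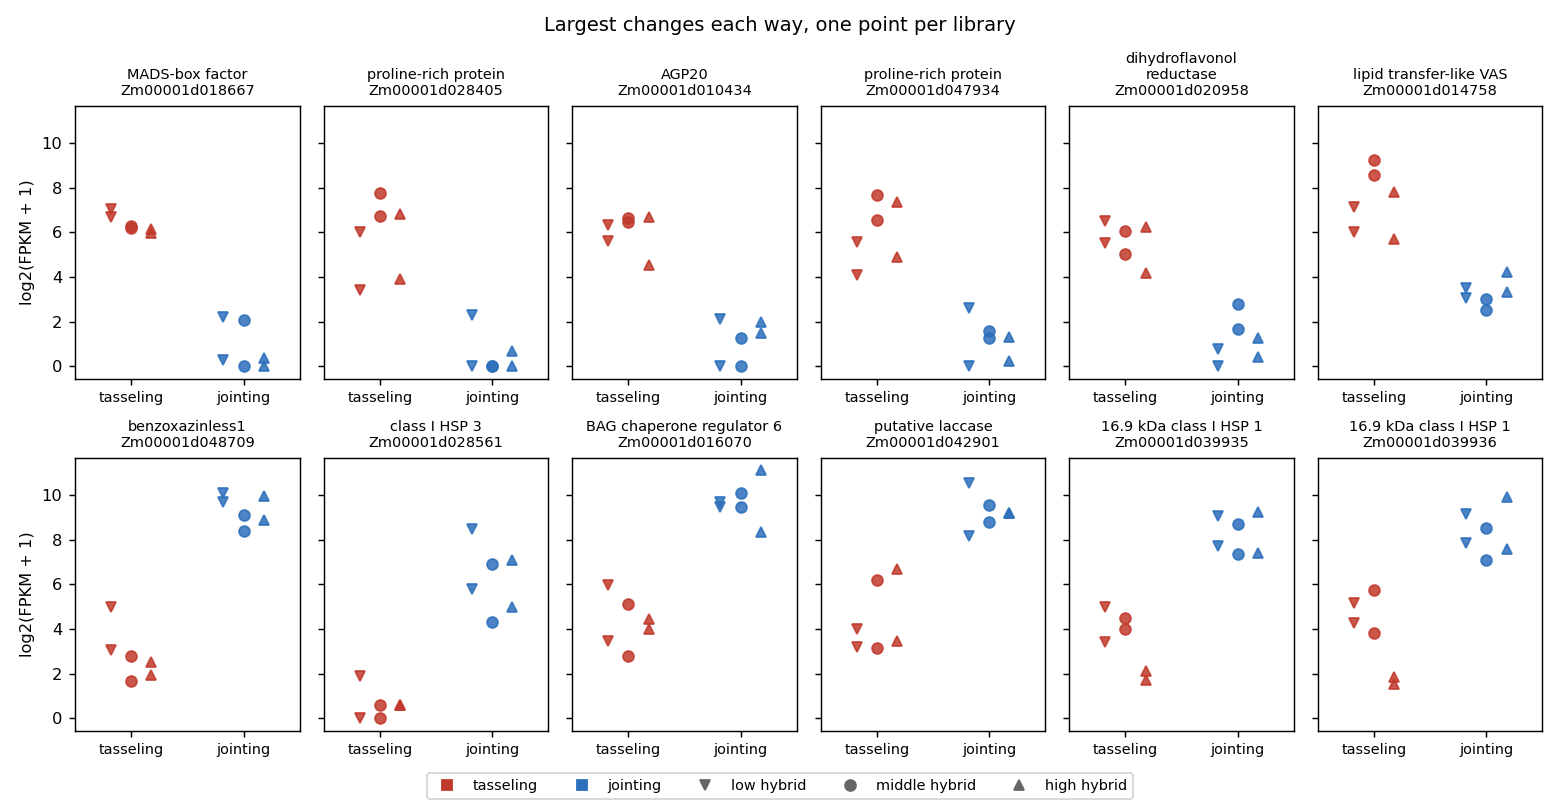
Levels on the log2(FPKM + 1) axis of the 6 largest rises (upper row) and the 6 largest falls (lower row) among named, called genes whose stages do not overlap, 1 point per library, tasseling left and jointing right in each panel. The lack of overlap between the 6 tasseling and the 6 jointing points in every panel was fixed by that choice.

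The fall of benzoxazinless1 was shared by the early steps of its pathway and not by all the late ones. Benzoxazinoids are made from indole by a chain of cytochrome P450 enzymes, glucosylated for storage and freed by a glucosidase when tissue is damaged. The pathway list was added after values were seen, and of its 15 tested members 1 rose and 8 fell, against 18.7% and 10.8% of all genes, with a median change of -1.11. The summed level of the list was 616 to 1948 FPKM at tasseling (median 1186) and 3709 to 9692 FPKM at jointing (median 6399), with no overlap.

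The P450 genes came next after benzoxazinless1. Benzoxazinone synthesis2, Zm00001d048710, had 7.34 to 45.4 FPKM at tasseling (median 13.7) and 210.2 to 573 FPKM at jointing (median 288), a change of -4.25 ± 0.20 (adjusted p = 1.29e-06). The gene matched to indolin-2-one monooxygenase, Zm00001d048702, had 65.5 to 413 FPKM at tasseling (median 147) and 802 to 2654 FPKM at jointing (median 1684), a change of -3.35 ± 0.30 (adjusted p = 7.64e-05). The match to 3-hydroxyindolin-2-one monooxygenase, Zm00001d048703, had 88.0 to 295 FPKM at tasseling (median 193) and 720 to 1607 FPKM at jointing (median 1265), a change of -2.76 ± 0.22 (adjusted p = 7.15e-05). Cytochrome P450 71C3, Zm00001d048705, had 73.5 to 329 FPKM at tasseling (median 139) and 820.2 to 2445 FPKM at jointing (median 1522), a change of -3.35 ± 0.25 (adjusted p = 4.05e-05). None of these genes overlapped between the stages, and each P450 gene was still measured in every tasseling library.

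Later enzymes changed less. The gene of the methyltransferase BX7, Zm00001d049179, had 54.8 to 169 FPKM at tasseling and 159 to 433 FPKM at jointing, a change of -1.11 ± 0.27 (adjusted p = 0.00948) with overlapping stages. Benzoxazinone synthesis 8, a glucosyltransferase gene, Zm00001d048707, changed by -0.52 ± 0.15 (adjusted p = 0.0248), and lost the call in 4 of the fits that left out 1 library. For the dioxygenase BX6 gene, Zm00001d048634, the change was -0.19 with a 95% interval of -0.91 to 0.53 (adjusted p = 0.702). For the glucosyltransferase BX9 gene, Zm00001d031209, it was -0.17 with an interval of -0.54 to 0.21 (adjusted p = 0.499). The 1 member that rose, Zm00001d023994, matched to the glucosidase that frees the toxin, had 33.9 to 319 FPKM at tasseling and 0.66 to 111 FPKM at jointing. Its change of 2.96 ± 0.97 (adjusted p = 0.0382) was lost in 6 of the fits that left out 1 library. Another match to that glucosidase, Zm00001d024891, changed by -1.66 with an interval of -3.65 to 0.34 (adjusted p = 0.195). An indole-3-glycerol phosphate lyase of the same enzyme family as benzoxazinless1, Zm00001d018969, fell by 1.23 log2 units (adjusted p = 0.0018), while its relative Zm00001d034460 changed by 0.33 with an interval of -0.15 to 0.80 (adjusted p = 0.286).

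**Figure D3:**
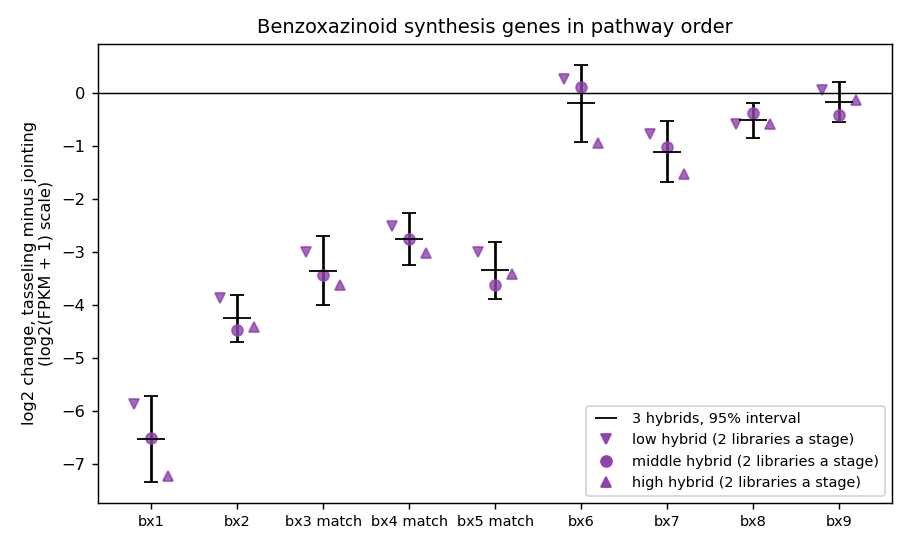
Change of 9 benzoxazinoid genes, tasseling minus jointing on the log2(FPKM + 1) scale. The genes stand in the order of their bx numbers. Despite the title, this is not the pathway order for the last 4. By their names, BX6 and BX7 act on glucosides, so they follow the glucosyltransferases. Black bars give the estimate over the 3 hybrids with its 95% interval, and purple points the change in each hybrid, with 2 libraries a stage. The first 5 genes lie between -6.53 and -2.76, and the last 4 between -1.11 and -0.17.

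Heat shock proteins, chaperones that hold or refold damaged proteins, mostly fell or did not change. Of 60 tested members, 22 fell (36.7%, against 10.8% of all genes) and 6 rose (10%, against 18.7%). Their median change was -0.48 against 0.09 for all genes. Their summed level was 2582 to 3768 FPKM at tasseling (median 3312) and 4253 to 9896 FPKM at jointing (median 7582), with no overlap. Of the 22 falls, 16 were of small heat shock proteins, a list of 24 tested members added after values were seen. In that list 66.7% fell, against 10.8% of all genes, and 2 rose (8.33%, against 18.7%), with a median of -1.84. For a class II small heat shock gene, Zm00001d039566, the mean was 134 ± 70.3 FPKM at tasseling and 888 ± 356 FPKM at jointing (SD, n = 6 each), a change of -2.77 (adjusted p = 0.000277). A larger chaperone of the Hsp70 kind, Zm00001d047799, had 1.53 to 3.98 FPKM at tasseling (median 2.65) and 22.7 to 152 FPKM at jointing (median 44.9), and changed by -3.82 ± 0.33 (adjusted p = 7.64e-05). The family was not uniform. The peroxisomal-like small heat shock gene Zm00001d044316 had 1.67 to 13.2 FPKM at tasseling (median 10.4) and 0 to 1.57 FPKM at jointing, and rose by 2.69 ± 0.40 log2 units (adjusted p = 0.000698). The small heat shock-like gene Zm00001d032893 averaged 43.3 ± 18 FPKM at tasseling and 4.66 ± 4.86 FPKM at jointing (SD, n = 6 each; adjusted p = 0.00118).

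Among genes of cell growth and division, the calls were nearly all rises, though many members did not pass the test. Of 216 tested cytosolic ribosomal protein genes, 91 rose (42.1%, against 18.7% of all genes), 0 fell and 125 were not called, with a median change of 0.63. Ribosomal protein L38e, Zm00001d031701, had 44.6 to 217 FPKM at tasseling (median 123) and 22.4 to 39.1 FPKM at jointing (median 31.2), a change of 1.98 ± 0.32 (adjusted p = 0.00108). 60S ribosomal protein L13a, Zm00001d013252, had 26.3 to 57.6 FPKM at tasseling (median 50.9) and 12.3 to 25.9 FPKM at jointing (median 20.6), a change of 1.23 ± 0.22 (adjusted p = 0.00219). The summed level of the list overlapped between the stages, at 12753 to 37387 FPKM at tasseling (median 32688) and 14191 to 23247 FPKM at jointing (median 19347). High tasseling replicate 2 was the lowest of all 12 libraries. The count of rises dropped to 56 without high tasseling replicate 1, 59 without low tasseling replicate 2 and 60 without middle jointing replicate 2. With relative depth as a covariate, 21 rose, and the median change was 0.78.

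Histones, the proteins that package newly made DNA, had the largest share of rises among the lists. Of 40 tested members, 22 rose (55%, against 18.7% of all genes) and 1 fell (2.5%, against 10.8%), with a median change of 0.89. Among the 34 matches to the core histones H2A, H2B, H3 and H4, 20 rose and 0 fell. The centromeric histone match, Zm00001d016723, had 47.5 to 176 FPKM at tasseling (median 72.7) and 9.61 to 38.6 FPKM at jointing (median 18.3), a change of 1.99 ± 0.27 (adjusted p = 0.000456). A histone H1-like gene, Zm00001d013066, had 55.1 to 103 FPKM at tasseling (median 85.7) and 6.22 to 34.3 FPKM at jointing (median 17.9), a change of 2.14 ± 0.32 (adjusted p = 0.00074). Both were separated by stage. The 1 member that fell was also a linker histone match. This gene, Zm00001d045478, had 139 to 504 FPKM at tasseling (median 221) and 699 to 1763 FPKM at jointing (median 793), a change of -1.85 ± 0.25 (adjusted p = 0.000495). Histone genes are near-identical copies, and the split of reads among them is uncertain.

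Of 55 tested cell division and DNA replication genes, 16 rose (29.1%, against 18.7% of all genes), 0 fell and 39 were not called, with a median change of 0.48. All 5 tested subunits of the MCM helicase, which unwinds DNA ahead of the replication fork, rose, by 1.10 to 1.67 log2 units. Proliferating cell nuclear antigen 2, Zm00001d051995, the clamp that holds DNA polymerase on its template, had 8.37 to 25.7 FPKM at tasseling (median 19.3) and 1.76 to 7.1 FPKM at jointing (median 6.35), a change of 1.77 ± 0.33 (adjusted p = 0.00236). Of 8 tested cyclins, 1 rose. That gene, cyclin-A2, Zm00001d014756, averaged 3.04 ± 1.71 FPKM at tasseling and 0.618 ± 0.668 FPKM at jointing (SD, n = 6 each; adjusted p = 0.029). The median change of the list was 0.77 in the low hybrid, 0.46 in the middle and 0.07 in the high. The count of rises dropped to 10 without high tasseling replicate 1 and to 9 among genes with a mean FPKM of at least 5. It was 6 with relative depth as a covariate, where the median change was 0.63.

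Tubulins and kinesins are the tracks and motors of the microtubule skeleton that guides division and wall deposition. Of 74 tested members, 31 rose (41.9%, against 18.7% of all genes) and 1 fell (1.35%, against 10.8%), with a median change of 0.62. Tubulin gamma-1 chain, Zm00001d009780, which starts new microtubules, had 22.0 to 41.5 FPKM at tasseling (median 30.0) and 7.49 to 12.7 FPKM at jointing (median 8.56), a change of 1.63 ± 0.18 (adjusted p = 0.000163). Tubulin beta-2 chain, Zm00001d013612, had 262 to 492 FPKM at tasseling (median 377) and 68.9 to 145 FPKM at jointing (median 123), a change of 1.77 ± 0.19 (adjusted p = 0.000164). The change was 1.58 to 1.71 log2 units over the hybrids for Zm00001d009780 and 1.67 to 1.92 for Zm00001d013612, and neither gene overlapped between the stages. Rises were found for 12 of 25 tubulins and 19 of 48 kinesins. The 1 fall was of a low tubulin alpha-6 chain gene, Zm00001d053102, at 0.48 to 2.98 FPKM at tasseling and 1.81 to 9.56 FPKM at jointing. With relative depth as a covariate, 19 members rose, and the median change was 0.65.

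**Figure D4:**
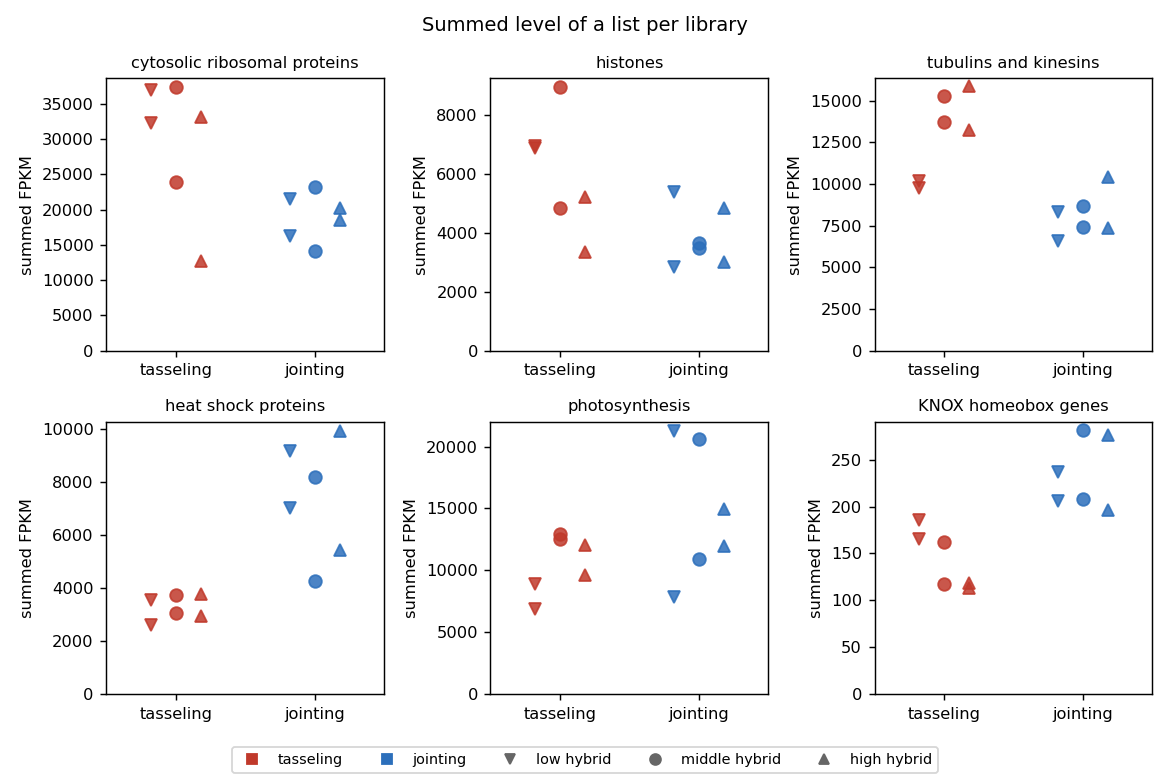
Summed FPKM of 6 gene lists in each library, tasseling left and jointing right, with axes that start at 0. Sums of heat shock proteins and of KNOX genes do not overlap between the stages, and those of ribosomal proteins, histones, tubulins and kinesins, and photosynthesis genes do.

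Among wall genes, many of those for surface and matrix proteins rose. In the list of arabinogalactan, proline-rich and extensin proteins, 43 members were tested, with a median change of 0.83. Of these, 18 rose (41.9%, against 18.7% of all genes) and 4 fell (9.30%, against 10.8%). Since this list was added after values were seen, its shares are not comparable with those of the other wall lists. Extensins are structural proteins that cross-link in the wall. An extensin-like gene, Zm00001d044076, had 46.8 to 156 FPKM at tasseling (median 93.6) and 3.95 to 36.0 FPKM at jointing (median 10.4), a change of 2.94 ± 0.48 (adjusted p = 0.00114). A classical arabinogalactan protein 4-like gene, BGI_novel_G000500, had 26.4 to 86.2 FPKM at tasseling (median 65.8) and 5.81 to 24.1 FPKM at jointing (median 13.9), a change of 2.08 ± 0.25 (adjusted p = 0.000259). Summed FPKM of the list was 2199 to 6588 at tasseling (median 3951) and 1149 to 2311 at jointing (median 1514), with a narrow overlap. A large part of these sums came from 1 gene, a match to fasciclin-like arabinogalactan protein 7, Zm00001d039770. It had 528 to 4438 FPKM at tasseling (median 1926) and 313 to 1077 FPKM at jointing (median 381), with overlapping stages. Its change was 1.66 ± 0.41 (adjusted p = 0.0104).

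The secondary wall and xylem list held 33 tested members, with a median change of 0.59. Of these, 11 rose (33.3%, against 18.7% of all genes) and 2 fell (6.06%, against 10.8%). Without high tasseling replicate 2, 5 fell. Its rises were mostly of fasciclin-like arabinogalactan proteins, of which 7 of 10 rose. These 7 genes are also counted among the 18 rises of the arabinogalactan, proline-rich and extensin list. Fasciclin-like arabinogalactan protein 7, Zm00001d039010, had 225 to 333 FPKM at tasseling (median 282) and 91.4 to 164 FPKM at jointing (median 141), a change of 1.04 ± 0.17 (adjusted p = 0.00128). Fasciclin-like arabinogalactan protein 2, Zm00001d051699, had 3.09 to 12.1 FPKM at tasseling and was listed at 0 in most jointing libraries, with 3.22 FPKM in high jointing replicate 2. Regulators named for the secondary wall differed. Secondary wall MYB46 transcription factor, Zm00001d023932, averaged 55.2 ± 31.6 FPKM at tasseling and 11.2 ± 10.8 FPKM at jointing (SD, n = 6 each; change 2.35, adjusted p = 0.00191). Of 5 secondary wall NAC factors, 1 rose, Zm00001d049678, by 1.15 log2 units (adjusted p = 0.00648). Of 10 laccases, 2 rose and 1 fell, and of 5 xylem cysteine proteinases, which act as xylem cells die, 1 fell.

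Lignin biosynthesis genes had few calls in either direction. Of 34 tested members, 1 rose and 0 fell, with a median change of 0.00, against 29.5% of all genes called. That gene, matched to cinnamoyl-CoA reductase 1-like, BGI_novel_G000856, had 4.28 to 9.07 FPKM at tasseling (median 6.07) and 0 to 6.52 FPKM at jointing (median 1.42), and its call was lost with relative depth as a covariate (adjusted p = 0.205). Summed FPKM of the list spread widely within each stage, at 1566 to 13312 at tasseling (median 3910.4) and 2351 to 7630.3 at jointing (median 5327), and the stages overlapped.

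Cellulose synthases split by member. Of 14 tested genes, 4 rose (28.6%, against 18.7% of all genes) and 2 fell (14.3%, against 10.8%), with a median change of 0.20. Cellulose synthase 2, Zm00001d037636, had 202 to 273 FPKM at tasseling (median 246) and 88.7 to 139 FPKM at jointing (median 114), a change of 1.09 ± 0.15 (adjusted p = 0.00047). Cellulose synthase 8, Zm00001d019317, had 227 to 376 FPKM at tasseling (median 263) and 87.9 to 142 FPKM at jointing (median 125), a change of 1.19 ± 0.17 (adjusted p = 0.000558). Cellulose synthase 3, Zm00001d039660, went the other way, at 16.4 to 33.3 FPKM at tasseling (median 19.5) and 32.7 to 52.6 FPKM at jointing (median 38.9), a change of -0.92 ± 0.16 (adjusted p = 0.00186). Cellulose synthase 11, Zm00001d043477, and cellulose synthase catalytic subunit 12, Zm00001d020531, known in maize for secondary walls, changed by -0.71 and -0.86 with adjusted p of 0.359 and 0.283.

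Enzymes that loosen or trim the wall were also mixed. Expansins loosen the bonds between wall polymers. Of 19 tested, 2 rose (10.5%, against 18.7% of all genes) and 5 fell (26.3%, against 10.8%), with a median change of -0.14. Alpha-expansin 13, Zm00001d002548, had 36.8 to 60.3 FPKM at tasseling (median 58.5) and 26.9 to 46.7 FPKM at jointing (median 31.6), a change of 0.64 ± 0.16 (adjusted p = 0.0107). Expansin-like 3, Zm00001d029783, had 3.87 to 7.5 FPKM at tasseling (median 5.73) and 10.8 to 30.6 FPKM at jointing (median 17.8), a change of -1.48 ± 0.25 (adjusted p = 0.00156). A second gene with the same name, Zm00001d047608, rose, with a mean of 221 ± 46.6 FPKM at tasseling and 136 ± 21.0 FPKM at jointing (SD, n = 6 each; adjusted p = 0.011). The largest fall was of beta-expansin 1a, Zm00001d047096, by 2.73 log2 units (adjusted p = 0.00725). The rises numbered 4 without high tasseling replicate 2. The falls numbered 3 with relative depth as a covariate and 2 when the spread was estimated over 18 libraries.

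Xyloglucan endotransglucosylase/hydrolases cut and rejoin the xyloglucan between cellulose fibrils. In the list of xyloglucan and endoglucanase enzymes, 6 of 30 tested members rose and 3 fell, with a median of 0.41. These shares, 20% and 10%, were near the 18.7% and 10.8% of all genes. Xyloglucan endotransglucosylase/hydrolase protein 5, Zm00001d027368, had 4.22 to 34.6 FPKM at tasseling (median 16.9) and 0.29 to 6.64 FPKM at jointing (median 1.5), a change of 2.63 ± 0.49 (adjusted p = 0.00248). The match to protein 23 of that family, Zm00001d014614, had 0.6 to 9.67 FPKM at tasseling (median 3.75) and 10.8 to 71.5 FPKM at jointing (median 46.2), a change of -3.28 ± 0.52 (adjusted p = 0.00107). So members of one enzyme family moved apart.

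Among 35 tested pectin-modifying enzymes, 13 rose (37.1%, against 18.7% of all genes) and 3 fell (8.57%, against 10.8%), with a median of 0.34. Pectinesterases, which strip methyl groups from pectin, had 7 rises and 0 falls among 20. Polygalacturonases, which cut the demethylated chain, had 5 rises and 3 falls among 13. The polygalacturonase Zm00001d023813 had 83.9 to 127 FPKM at tasseling (median 100.5) and 7.89 to 32.6 FPKM at jointing (median 13.1), a change of 2.77 ± 0.27 (adjusted p = 0.000113). The polygalacturonase Zm00001d040589 had 1.76 to 22.9 FPKM at tasseling (median 4.04) and 14.3 to 42.8 FPKM at jointing (median 26.6), a change of -2.31 ± 0.46 (adjusted p = 0.00335).

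**Figure D5:**
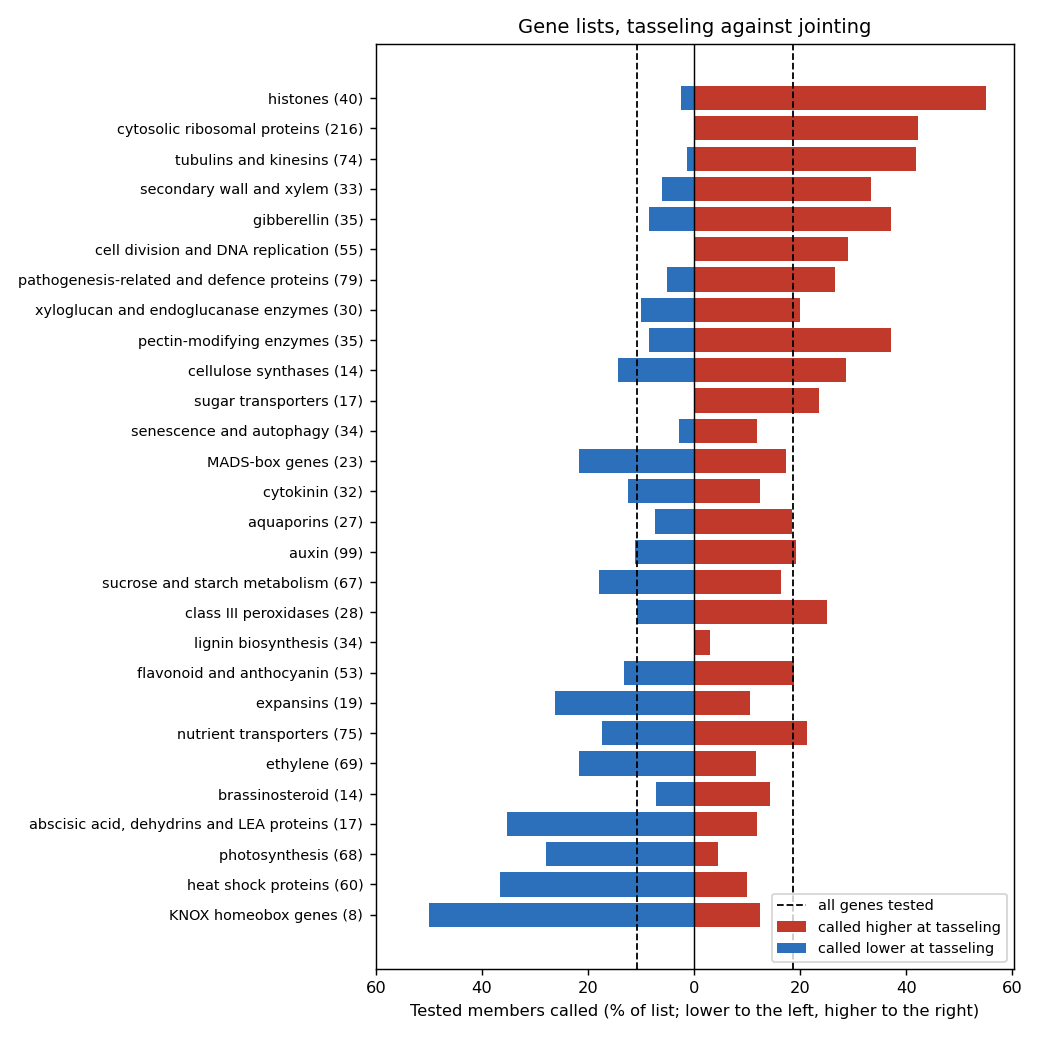
Share of the tested members of 28 gene lists, without the marker lists and the 3 lists added after values were seen, that rose (red, right) or fell (blue, left) at tasseling against jointing, with the number tested in brackets and lists sorted by their median change. Dashed lines mark the shares over all tested genes, 18.7% higher and 10.8% lower. Of the lists shown, histones have the longest red bar and KNOX genes, with 8 members, the longest blue bar.

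Of the hormone lists, the gibberellin list had the highest share of rises. Gibberellins drive internode elongation by releasing growth from DELLA repressors through the GID1 receptor. Of 35 tested members, 13 rose (37.1%, against 18.7% of all genes) and 3 fell (8.57%, against 10.8%), with a median change of 0.49. Summed FPKM of the list overlapped between the stages, at 668 to 1274 at tasseling (median 956) and 695 to 1329 at jointing (median 1048). Most of the 13 rises were of matches to gibberellin receptor GID1L2, with 9 rises and 1 fall among 14. The rank of the list thus leaned on that name. That name comes from protein matching and is also given to related carboxylesterases, so it was not checked that these genes encode receptors. The match Zm00001d016895 had 16.7 to 38.6 FPKM at tasseling (median 26.9) and 2.06 to 5.73 FPKM at jointing (median 3.97), a change of 2.49 ± 0.22 (adjusted p = 7.64e-05). Enzymes of gibberellin turnover were fewer. Gibberellin 20 oxidases, which make the precursor of the active hormone, had 2 rises among 4, with Zm00001d029744 at 45.2 ± 23.2 FPKM at tasseling and 10.3 ± 14.8 FPKM at jointing (SD, n = 6 each; adjusted p = 0.009). Gibberellin 2-oxidases, which inactivate it, had 1 fall among 5, Zm00001d038695, by 1.49 log2 units (adjusted p = 0.0142). Gibberellin-regulated protein 1, Zm00001d033369, had 8.57 to 198 FPKM at tasseling (median 44.5) and 161 to 666 FPKM at jointing (median 368), a change of -3.14 ± 0.39 (adjusted p = 0.000277).

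Auxin genes moved both ways at shares near those of all genes. Of 99 tested, 19 rose (19.2%, against 18.7%) and 11 fell (11.1%, against 10.8%), with a median of 0.04. Auxin transporter-like protein 3, Zm00001d053004, an importer by its name, had 7.86 to 53.9 FPKM at tasseling (median 16.2) and 0.21 to 5.54 FPKM at jointing (median 2.25), a change of 2.71 ± 0.49 (adjusted p = 0.00206). The Aux/IAA repressor gene IAA14, Zm00001d013071, rose by 2.01 ± 0.38 log2 units (adjusted p = 0.00281), and the SAUR33 match Zm00001d032094 changed by -1.80 ± 0.31 (adjusted p = 0.00174). Without low jointing replicate 2 the falls numbered 18, with median-of-ratios scaling 17, and the rises 9 with relative depth as a covariate.

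Among 69 tested ethylene genes, 15 fell (21.7%, against 10.8% of all genes) and 8 rose (11.6%, against 18.7%), with a median of -0.30. Of their 44 transcription factors, 9 fell and 4 rose. An ethylene response factor, Zm00001d005798, had 9.69 to 63.1 FPKM at tasseling (median 27.3) and 57.9 to 238 FPKM at jointing (median 124), a change of -2.15 ± 0.29 (adjusted p = 0.000456). The ERF012-like gene Zm00001d028524 went the other way, at 9.47 to 14.7 FPKM at tasseling (median 10.9) and 0.95 to 5.68 FPKM at jointing (median 1.84), a change of 1.87 ± 0.26 (adjusted p = 0.000559). The rises numbered 5 without high tasseling replicate 1 and with quantile normalization, and 4 with relative depth as a covariate.

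Of 17 tested abscisic acid, dehydrin and LEA genes, 6 fell (35.3%, against 10.8% of all genes) and 2 rose (11.8%, against 18.7%), with a median of -0.43. Summed FPKM of this list was 1921 to 5356 at tasseling (median 3612) and 2468 to 3428 at jointing (median 3100). The stages overlapped, with the higher median at tasseling. Abscisic acid and the dehydrins are tied to water stress and seed maturation. An ABA-responsive protein gene, Zm00001d023664, had 4.77 to 18.5 FPKM at tasseling (median 8.54) and 28.5 to 143 FPKM at jointing (median 72.3), a change of -2.73 ± 0.40 (adjusted p = 0.000657). The receptor match PYL4-like, Zm00001d028793, rose by 1.48 ± 0.23 log2 units (adjusted p = 0.00103). Of 32 cytokinin genes, 4 rose and 4 fell (12.5% each), with a median of 0.07. The rises numbered 1 without low jointing replicate 2, low tasseling replicate 2, middle tasseling replicate 1 or high jointing replicate 1, and 2 without middle jointing replicate 2, middle tasseling replicate 2 or either high tasseling library. The PRR95 match Zm00001d006212, counted there for its name but known as a clock gene, had 4.29 to 10.2 FPKM at tasseling (median 6.54) and 12.3 to 18.3 FPKM at jointing (median 14.2), a change of -1.06 ± 0.18 (adjusted p = 0.00128). The cytokinin-O-glucosyltransferase 3 gene, Zm00001d003101, changed by 0.75 ± 0.22 (adjusted p = 0.0258) and lost the call in 7 of the fits that left out 1 library. Of 14 brassinosteroid genes, 2 rose (14.3%, against 18.7%) and 1 fell (7.14%, against 10.8%), with a median of -0.31. Median-of-ratios scaling gave 2 rises and 5 falls. The co-receptor match BRASSINOSTEROID INSENSITIVE 1-associated receptor kinase 1, Zm00001d037898, had 3.57 to 30.6 FPKM at tasseling (median 20.8) and 0.34 to 7.17 FPKM at jointing (median 2.55), a change of 2.34 ± 0.52 (adjusted p = 0.00604). Its namesake Zm00001d015581 changed by -0.54 ± 0.18 (adjusted p = 0.0416), a call lost in 11 of the fits that left out 1 library.

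Photosynthesis genes mostly did not pass the test, and those that did were mostly lower. Of 68 tested, 19 fell (27.9%, against 10.8% of all genes) and 3 rose (4.41%, against 18.7%), with a median of -0.48. The falls were not of the light-harvesting antenna, since 0 of 19 chlorophyll a/b binding protein genes were called, and their changes ran from -0.65 to 0.70. Products of the plastid genome made up 8 of the falls, out of 10 tested, with changes of -4.17 to -1.15. Plastid transcripts mostly lack a stable poly-A tail, so their level in poly-A libraries is uncertain. Nuclear photosystem subunits made up another 8, out of 21. Photosystem I reaction center subunit V, Zm00001d005996, had 24.0 to 66.3 FPKM at tasseling (median 45.0) and 94.5 to 237 FPKM at jointing (median 132), a change of -1.72 ± 0.25 (adjusted p = 0.000637). The NADP-dependent malic enzyme gene Zm00001d037693 rose by 1.22 ± 0.23 log2 units (adjusted p = 0.00292). The rises numbered 6 without low jointing replicate 2. The falls numbered 11 without middle jointing replicate 2, 12 without high tasseling replicate 1 and 8 with relative depth as a covariate.

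Sugar use and transport changed gene by gene. Of 67 sucrose and starch metabolism genes, 11 rose (16.4%, against 18.7% of all genes) and 12 fell (17.9%, against 10.8%). Their median change was 0.03. Sucrose synthase 1, Zm00001d045042, which splits sucrose for wall and energy use, had 56.6 to 109.9 FPKM at tasseling (median 64.7) and 177 to 354 FPKM at jointing (median 264), a change of -1.89 ± 0.20 (adjusted p = 0.000152). A putative neutral/alkaline invertase, Zm00001d004804, had 12.2 to 27.7 FPKM at tasseling (median 20.6) and 3.0 to 8.76 FPKM at jointing (median 5.03), a change of 1.75 ± 0.23 (adjusted p = 0.00038). Beta-amylase Zm00001d027619 changed by -2.10 ± 0.27 (adjusted p = 0.000372). Among these genes the falls numbered 7 without middle tasseling replicate 1, without high jointing replicate 1 or without high tasseling replicate 2. With relative depth as a covariate, 4 rose and 6 fell.

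Of 17 sugar transporters, 4 rose (23.5%, against 18.7% of all genes) and 0 fell (against 10.8%), with a median of 0.13. Sucrose transporter2, Zm00001d018527, had 19.8 to 36.8 FPKM at tasseling (median 26.0) and 7.71 to 12.6 FPKM at jointing (median 10.1), a change of 1.31 ± 0.17 (adjusted p = 0.000323). Aquaporins are membrane channels for water, and of 27 tested 5 rose and 2 fell, with a median of 0.07. These shares, 18.5% and 7.41%, compare with 18.7% and 10.8% of all genes. The largest rises were of vacuolar channels. Aquaporin TIP2-1, Zm00001d051362, had 45.4 to 219 FPKM at tasseling (median 116) and 7.5 to 16 FPKM at jointing (median 11.3), a change of 3.17 ± 0.34 (adjusted p = 0.000152). Aquaporin TIP2-2, Zm00001d017485, changed by 3.04 ± 0.36 (adjusted p = 0.000221). The plasma membrane channel PIP2-4, Zm00001d017288, changed by -1.81 ± 0.38 (adjusted p = 0.00491), with 9.9 to 78.3 FPKM at tasseling and 65.8 to 183 FPKM at jointing. Nutrient transporters had 16 rises (21.3%, against 18.7%) and 13 falls (17.3%, against 10.8%) among 75, with a median of -0.19. With relative depth as a covariate, 7 of them rose. The SPX and EXS domain-containing protein 1-like gene, Zm00001d030939, of a family tied to phosphate export, rose by 1.46 ± 0.18 log2 units (adjusted p = 0.000264). The potassium channel KOR1-like gene, Zm00001d044717, changed by -1.79 ± 0.32 (adjusted p = 0.00184).

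Regulators of shoot identity changed in both directions. KNOX homeobox genes keep meristem cells undetermined. Of the 8 tested, 4 fell (50%, against 10.8% of all genes) and 1 rose (12.5%, against 18.7%), with a median of -0.64. Their summed level was 113 to 186 FPKM at tasseling (median 141) and 196 to 282 FPKM at jointing (median 223), with no overlap. Homeobox protein rough sheath 1, Zm00001d007842, had 4.71 to 23.6 FPKM at tasseling (median 12.1) and 27.4 to 57.2 FPKM at jointing (median 34.1), a change of -1.54 ± 0.30 (adjusted p = 0.00335). The KNOX1 domain gene Zm00001d033861 had 0 to 0.58 FPKM in 5 tasseling libraries and 32.2 FPKM in low tasseling replicate 2, against 28 to 84.7 FPKM at jointing (median 61.1). Its change was -4.78 ± 0.69 (adjusted p = 0.000637). This gene alone made up a large part of the gap between the summed levels of the list. The knotted-like gene Zm00001d033404 rose, with 36.2 to 64.3 FPKM at tasseling (median 47.6) and 18 to 33.7 FPKM at jointing (median 25.6), a change of 0.89 ± 0.19 (adjusted p = 0.0046) that lost its call with relative depth as a covariate (adjusted p = 0.11). Knotted-1 itself, Zm00001d035439, changed by 0.44 (adjusted p = 0.202), at 16.5 FPKM at tasseling and 12.1 FPKM at jointing on average.

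Of 23 tested MADS-box genes, 4 rose (17.4%, near the 18.7% of all genes) and 5 fell (21.7%, against 10.8%), with a median of 0.10 that was -0.02 after median-of-ratios scaling. Without high tasseling replicate 2 the rises numbered 6. Beside Zm00001d018667, MADS24, Zm00001d034047, averaged 26.2 ± 8.55 FPKM at tasseling and 1.62 ± 1.35 FPKM at jointing (SD, n = 6 each; change 3.44, adjusted p = 7.33e-05). MADS1, Zm00001d048474, did the reverse, listed at 0 in 5 of the 6 tasseling libraries and at 0.13 FPKM in high tasseling replicate 2, against 10.6 to 24.0 FPKM at jointing (median 16.5). Its change was -4.12 ± 0.19 log2 units (adjusted p = 1.29e-06). A putative MADS-box family gene, Zm00001d025479, had 0.52 to 6.22 FPKM at tasseling (median 3.01) and 8.02 to 40.5 FPKM at jointing (median 21.5), a change of -2.33 ± 0.26 (adjusted p = 0.000174). Pollen and anther markers were listed to check for tassel tissue. Their summed level was 552 to 736 FPKM at tasseling (median 600) and 458 to 690 FPKM at jointing (median 629). Among 34 tested, 6 rose (17.6%, against 18.7% of all genes) and 5 fell (14.7%, against 10.8%). Of the 46 members, 12 were under 1 FPKM in every library. Without middle tasseling replicate 2, without high jointing replicate 1, without high tasseling replicate 1 and with relative depth as a covariate, the falls numbered 3. The part of other tissue in the MADS-box changes was not tested. Leaf markers summed to 3905 to 7203 FPKM at tasseling (median 6526) and 3401 to 11054 FPKM at jointing (median 7240). Among 26 tested, 3 rose (11.5%, against 18.7% of all genes) and 1 fell (3.85%, against 10.8%).

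Genes switched between low and clear levels were few. At 1 FPKM or more in all 6 tasseling libraries and under 0.5 FPKM in all 6 jointing libraries there were 6 genes, and 2 showed the opposite. These genes were singled out after their values were seen. Of the 6, 2 had informative names. MADS-box transcription factor 34, Zm00001d013258, whose rice namesake shapes the inflorescence, had 1.56 to 13.6 FPKM at tasseling and 0 to 0.27 FPKM at jointing. The receptor-like kinase gene Zm00001d014971 had 5.94 to 26.5 FPKM at tasseling (median 7.93) and 0 to 0.39 FPKM at jointing. The opposite pattern was that of MADS1 and of the (E)-beta-farnesene synthase-like gene Zm00001d035682, of an enzyme family that makes a volatile, with 0 to 0.15 FPKM at tasseling and 4.69 to 40.5 FPKM at jointing (median 16.3).

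Among pathogenesis-related and defence proteins, 21 of 79 tested rose (26.6%, against 18.7% of all genes) and 4 fell (5.06%, against 10.8%), with a median of 0.44. The falls numbered 8 without high jointing replicate 2, 2 without either middle jointing library, either middle tasseling library or high jointing replicate 1, and 7 with median-of-ratios scaling or quantile normalization. Glucanases and glucosidases, which cut wall glucans of plants and fungi, had 10 rises and 1 fall among 30, and thaumatin matches 6 rises and 0 falls among 19. The glucan endo-1,3-beta-D-glucosidase-like gene Zm00001d039251 had 77.3 to 220.1 FPKM at tasseling (median 172) and 17.7 to 49.6 FPKM at jointing (median 34.1), a change of 2.22 ± 0.28 (adjusted p = 0.000316). An endo-1,3;1,4-beta-D-glucanase-like gene, Zm00001d009938, had 0 to 1.91 FPKM at tasseling (median 0.54) and 2.82 to 29.1 FPKM at jointing (median 14.0), a change of -2.96 ± 0.45 (adjusted p = 0.000793).

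Of 34 senescence and autophagy genes, 4 rose (11.8%, against 18.7% of all genes) and 1 fell (2.94%, against 10.8%), with a median of 0.13. A senescence-associated protein gene, Zm00001d048449, had 118 to 189 FPKM at tasseling (median 165) and 24.7 to 51.5 FPKM at jointing (median 37.7), a change of 2.01 ± 0.18 (adjusted p = 7.64e-05), and senescence-associated protein DH, Zm00001d020552, changed by -2.28 ± 0.63 (adjusted p = 0.0178). Class III peroxidases couple phenolics in the wall. Of 28 tested, 7 rose (25%, against 18.7% of all genes) and 3 fell (10.7%, against 10.8%), with a median of 0.02. Peroxidase 72-like, Zm00001d009373, had 51.4 to 170 FPKM at tasseling (median 92.6) and 9.28 to 41.2 FPKM at jointing (median 21.9), a change of 2.18 ± 0.41 (adjusted p = 0.00247). Peroxidase 45, Zm00001d014606, had 0.48 to 3.99 FPKM at tasseling (median 1.55) and 6.09 to 59.2 FPKM at jointing (median 40.6), a change of -3.44 ± 0.56 (adjusted p = 0.00117). Flavonoid and anthocyanin genes had 10 rises (18.9%, against 18.7%) and 7 falls (13.2%, against 10.8%) among 53, with a median of -0.01. With relative depth as a covariate, 4 peroxidases and 5 flavonoid genes rose, and 6 flavonoid genes rose without high tasseling replicate 1.

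The 3 hybrids changed mostly in the same direction. Of the 7623 called genes, 99.0% had the same sign of change in all 3 hybrids, against 56.2% of all tested genes. This share is no independent support, since a call over the hybrids favours genes that move together. Within a hybrid, with 2 libraries a stage, 595 genes were called in the low hybrid (2.3% of those tested), 2050 in the middle hybrid (7.93%) and 614 in the high hybrid (2.37%). Of these, 424 (1.64%) were higher and 171 (0.661%) lower in the low hybrid, 1322 (5.11%) higher and 728 (2.82%) lower in the middle, and 307 higher and 307 lower (1.19% each) in the high. Such counts do not rank the hybrids by size of change. Genes called higher in each hybrid on its own numbered 103, and genes called lower in each numbered 60. The median change over all tested genes was 0.22 in the low hybrid, 0.10 in the middle and -0.02 in the high.

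A difference of the stage change between hybrids was called for 1 gene (0.00387% of those tested) by limma's F test, and 1423 genes had an unadjusted p under 0.05. That gene, BGI_novel_G000367, has no informative name. It had 0 and 0.25 FPKM in low tasseling, 47.5 and 35.8 in middle tasseling and 30.8 and 25.4 in high tasseling, against 0 and 0 in low jointing, 0.53 and 0.56 in middle jointing and 50.5 and 46 in high jointing. It was thus near 0 in the low hybrid at both stages, higher at tasseling in the middle hybrid, and present at both stages in the high hybrid (adjusted p = 0.00768). The call was lost with a pseudocount of 0.1 (adjusted p = 0.248) and in 6 of the fits that left out 1 library. Among genes with a name and a group mean of 5 FPKM or more, the smallest p belonged to a cortical cell-delineating protein gene, Zm00001d051384, and a DEAD-box ATP-dependent RNA helicase 15-like gene, BGI_novel_G001576 (adjusted p = 0.228 for both). Among the 12 libraries both were listed at 0 except in middle tasseling, where the levels were 8.89 and 5.29 FPKM for Zm00001d051384 and 4.82 and 7.3 FPKM for BGI_novel_G001576. Middle big flare, which the test did not use, held 2.36 and 2.39 FPKM of Zm00001d051384 and 5.78 and 5.04 FPKM of BGI_novel_G001576.

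The big flare stage lies between jointing and tasseling, and its mean level was not always between theirs. For the called genes, big flare means come from 6 further libraries that the test did not use. Of the genes that rose, 46.6% had a big flare mean between the means of tasseling and jointing, 50.3% below both and 3.10% above both. Of the genes that fell, the shares were 41.9% between, 52.0% above both and 6.09% below both. Among genes not called, 24.4% lay between. That share is not comparable, since genes are called for stage means that lie apart, which leaves more room between them. The positions use bare means, without regard to the spread of libraries. Benzoxazinless1, Zm00001d048709, with a big flare mean of 353 FPKM, lay between its means of 8.94 ± 10.8 FPKM at tasseling and 715 ± 312 FPKM at jointing (SD, n = 6 each). The MADS-box gene Zm00001d018667, at 5.20 FPKM in big flare, also lay between, near jointing. Cellulose synthase 8, Zm00001d019317, at 61.5 FPKM in big flare, lay below both 280.2 ± 57.1 FPKM at tasseling and 122 ± 18.4 FPKM at jointing (SD, n = 6 each).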

How the data were processed

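Poly-A RNA of stems was made into libraries with the TruSeq V2 kit and sequenced in pairs, per the labels' protocols. The authors deposited FPKM values per gene. Per the submitters' processing notes, the build is B73 RefGen_v4 and the tools include Cufflinks 2.2.1, DESeq 1.28.0, Cuffdiff and TopHat2, with roles and filters not given in the sources used here. FPKM divides by library size, so abundant genes shift all others, and mean relative depth was 0.863 in tasseling and 0.578 in jointing libraries. Low values are less precise in shallow libraries.

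From these values, log2(FPKM + 1) was tested with limma 3.58.1 in R 4.3.3 (additive hybrid and stage, moderated variances with a mean trend, 8 residual degrees of freedom, two-sided, Benjamini-Hochberg over the 25854 genes tested). Changes within a hybrid and differences between hybrids came from a fit of the 6 group means. Alternatives were pseudocount, filter, scaling, model, replicate block, leaving out each library and, chosen after seeing the data, leaving out replicate 2 of the high hybrid at both stages and a relative depth covariate.

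Gene names are best protein matches in the deposited table, informative for 16309 genes and not checked by sequence. The 33 gene lists are name patterns. The libraries, lists and members were chosen with earlier results of these data known, and 3 lists were added after values were seen. Named genes are the 6 largest changes each way among named, called genes with 5 FPKM or more on the higher side, the same sign in each hybrid and no overlap; for each list, 2 members with the smallest adjusted p in its main direction and 1 in the other; and the 3 smallest p for a difference between hybrids. List members, subgroups and benzoxazinoid genes given beyond these were chosen after their values were seen.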

Additional observations from a re-analysis of the deposited data

Results flagged for a closer look

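Within a stage, a library was marked where its gap to the nearest other library was over Dixon's critical value for 6 samples on the log2(FPKM + 1) scale. This happened in 18 of 249 stage groups over 127 genes, and chance marks about 1 in 20. High tasseling replicate 2 was the marked library in 10 of them, and the cause was not tested. It was the lowest tasseling library for ribosomal protein L13a, Zm00001d013252, at 26.3 FPKM, for the receptor kinase matches Zm00001d037898 at 3.57 FPKM and Zm00001d015581 at 3.79 FPKM, for cytokinin-O-glucosyltransferase 3, Zm00001d003101, at 4.52 FPKM, and for the peroxisomal-like heat shock gene Zm00001d044316 at 1.67 FPKM. The same held for the wall protein genes AGP16, Zm00001d016059, at 46.7 FPKM, Zm00001d015213 at 42.9 FPKM, BGI_novel_G000500 at 26.4 FPKM and Zm00001d037682 at 10.2 FPKM. It was the highest tasseling library for MADS1, Zm00001d048474, at 0.13 FPKM, where the others were listed at 0.

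Other libraries were marked less often. Low tasseling replicate 2 held 32.2 FPKM of the KNOX1 domain gene Zm00001d033861. Low tasseling replicate 1 was high for class I heat shock protein 3, Zm00001d028561, at 2.67 FPKM, and for sucrose synthase 1, Zm00001d045042, at 109.9 FPKM. Low jointing replicate 1 was high for the proline-rich gene Zm00001d028405, at 3.88 FPKM, and the linker histone match Zm00001d045478, at 1763 FPKM, and low for fasciclin-like arabinogalactan protein 7, Zm00001d039010, at 91.4 FPKM. High jointing replicate 2 was high for Zm00001d051699, at 3.22 FPKM, and high jointing replicate 1 low for the proline-rich protein gene Zm00001d002093, at 0.62 FPKM.

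BGI_novel_G000367 was the 1 gene whose stage change differed between hybrids by the F test over the 6 group means (adjusted p = 0.00768).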

How the results depend on the processing

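Among the 117 genes refitted under 19 to 22 alternatives (others named in the text were not), no change reversed. The number of genes called over the 3 hybrids stayed between 5662 and 8326 in all but 1. The exception was relative depth as a covariate, with 4435 calls (2613 higher, 1822 lower), and since tasseling libraries were deeper the cause cannot be told apart from stage. Leaving out 1 library gave 5662 to 8280 calls, 3610 to 5651 of them higher and 2052 to 2952 lower. Within hybrids, where leaving out 1 library leaves a lone library assumed to vary like the others, the counts were 3 to 987 in the low hybrid, 12 to 2482 in the middle and 1 to 1214 in the high. For the difference between hybrids they were 0 to 3. With a pseudocount of 0.1 the count of such differences was 0 and with no filter 20, and it was 0 without replicate 2 of the high hybrid at both stages. Within the low hybrid 340 genes were called with no filter and 950 with a mean FPKM of at least 5; within the high hybrid the counts were 940 with that filter and 994 with median-of-ratios scaling. Without replicate 2 of the high hybrid at both stages the low hybrid had 949 calls and the middle 2485. With a replicate block, 6539 genes were called. Correlations across genes of same-numbered deviations were -0.02, 0.10 and -0.19 in the low, middle and high hybrid. With 1 pair of deviations in a hybrid, they cannot show whether the replicate numbers pair the libraries. Of these genes, Zm00001d015581 lost its call in 15 fits, Zm00001d002093 and Zm00001d023994 in 12, Zm00001d003101 in 10, Zm00001d052819 in 8, Zm00001d033279 in 7, Zm00001d048707 in 6, Zm00001d006009 in 4 and Zm00001d002548 in 2. A further 11 lost it in 1 fit, 10 of them the fit with the depth covariate. The unknown depth limits low genes most.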
